A study of Mus musculus with 15 samples.

Results

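The lipoprotein lipase system was followed in endothelial cells of mouse heart, liver and brain through 7 genes: Lpl, Gpihbp1, Angptl4, Lmf1, Lipg, Lipc and Lipa. A gene was taken as measured when a probe set of the array carried its symbol and no other. By that rule 6 of the 7 were found among 19938 genes, each with 1 probe set, and Lipc, the hepatic lipase, was not analysed here. The 6 were Lpl (probe set 10572130), Gpihbp1 (10424695), Angptl4 (10450038), Lmf1 (10442816), Lipg (10459772) and Lipa (10467139).

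Lipoprotein lipase, the product of Lpl, splits the triglycerides of chylomicrons and very low density lipoproteins on the wall of capillaries and so releases fatty acids for muscle, heart and fat. In heart and fat the enzyme is known to be made mainly by cardiomyocytes and adipocytes and then carried across the capillary endothelium by GPIHBP1, a membrane-anchored protein of the Ly6 family. LMF1 lets newly made lipases fold in the endoplasmic reticulum, and ANGPTL4 inactivates lipoprotein lipase. Lipg encodes endothelial lipase, mainly a phospholipase of high density lipoproteins, and Lipa encodes the lysosomal acid lipase that breaks down cholesteryl esters and triglycerides of lipoproteins taken up whole.

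The cells were microvascular endothelial cells from Tie2-GFP mice on the FVB background, aged 8 to 12 weeks and of both sexes in equal number. These mice carry a green fluorescent protein under the Tie2 (Tek) promoter, which is active in endothelium and in some blood cells, and the fluorescent cells were sorted. There were 5 heart samples of 4 pooled mice each, 5 liver samples of 2 mice each and 5 brain samples of 6 mice each, all untreated and on standard chow. Heart and brain were digested for 60 min with collagenase at body temperature (brain with DNase and a short trypsin step) and liver for 60 min with dispase at room temperature, so tissue, enzyme and pool size cannot be told apart. RNA (5 ng a sample) was amplified and read on 1 Affymetrix mouse gene array per pool.

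Values are log2 signals, so a difference of 1 is a doubling, and levels are compared between tissues for 1 gene at a time. The median over all genes was 5.98 to 6.11 on the 15 arrays, and arrays of the same tissue correlated across genes at 0.978 or more. The 12 endothelial markers had a mean log2 signal of 10.56 in heart, 10.55 in liver and 10.77 in brain. Of them 2 were higher and 3 lower in heart than in brain (15.4% of all genes differed). In liver 2 were higher and 5 lower than in brain (25.1% of all genes differed). Between heart and liver, 4 were higher and 4 lower in heart (27.8% of all genes differed). Cldn5, with 8.92 in heart, 9.86 in liver and 11.27 in brain, was enriched in brain and raised the list's mean there. The junction cadherin Cdh5, with 12.06 in heart, 11.73 in liver and 11.50 in brain, was highest in heart, unlike the list's mean. Markers of other cells were also present: of 16 markers of cardiomyocytes, heart exceeded liver for all and brain for 15, and 12 of 13 macrophage markers were higher in liver than in brain. Because these are bulk samples, fewer cells of a type and less RNA per cell cannot be told apart.

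Lpl was high in heart endothelial samples and low in the others, whereas Gpihbp1 was high in heart and liver and low in brain. Angptl4 was lowest in liver, Lipa was lowest in heart, Lmf1 was lower in heart than in liver, and Lipg was near the bottom of the scale everywhere. Differences were tested with limma over all genes, with Benjamini-Hochberg adjusted p-values and a threshold of 0.05. Heart and brain differed for 3 of the 6 genes (Lpl and Gpihbp1 higher, Lipa lower), where 15.4% of all genes passed (7.11% higher and 8.29% lower in heart). Liver and brain differed for 2 of the 6 (Gpihbp1 higher, Angptl4 lower), where 25.1% of all genes passed (14% higher and 11.1% lower in liver). Heart and liver differed for 4 of the 6 (Lpl and Angptl4 higher in heart, Lmf1 and Lipa lower), where 27.8% passed (11.5% higher and 16.3% lower in heart). The lists of partner genes further on are to be read against the same shares. With 6 genes these counts describe the set and do not set it apart from other genes; its median log2 difference was 0.03 for heart minus brain, 0.01 for liver minus brain and -0.25 for heart minus liver, against 0.03, 0.00222 and 0.03 over all genes.

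**Figure D1:**
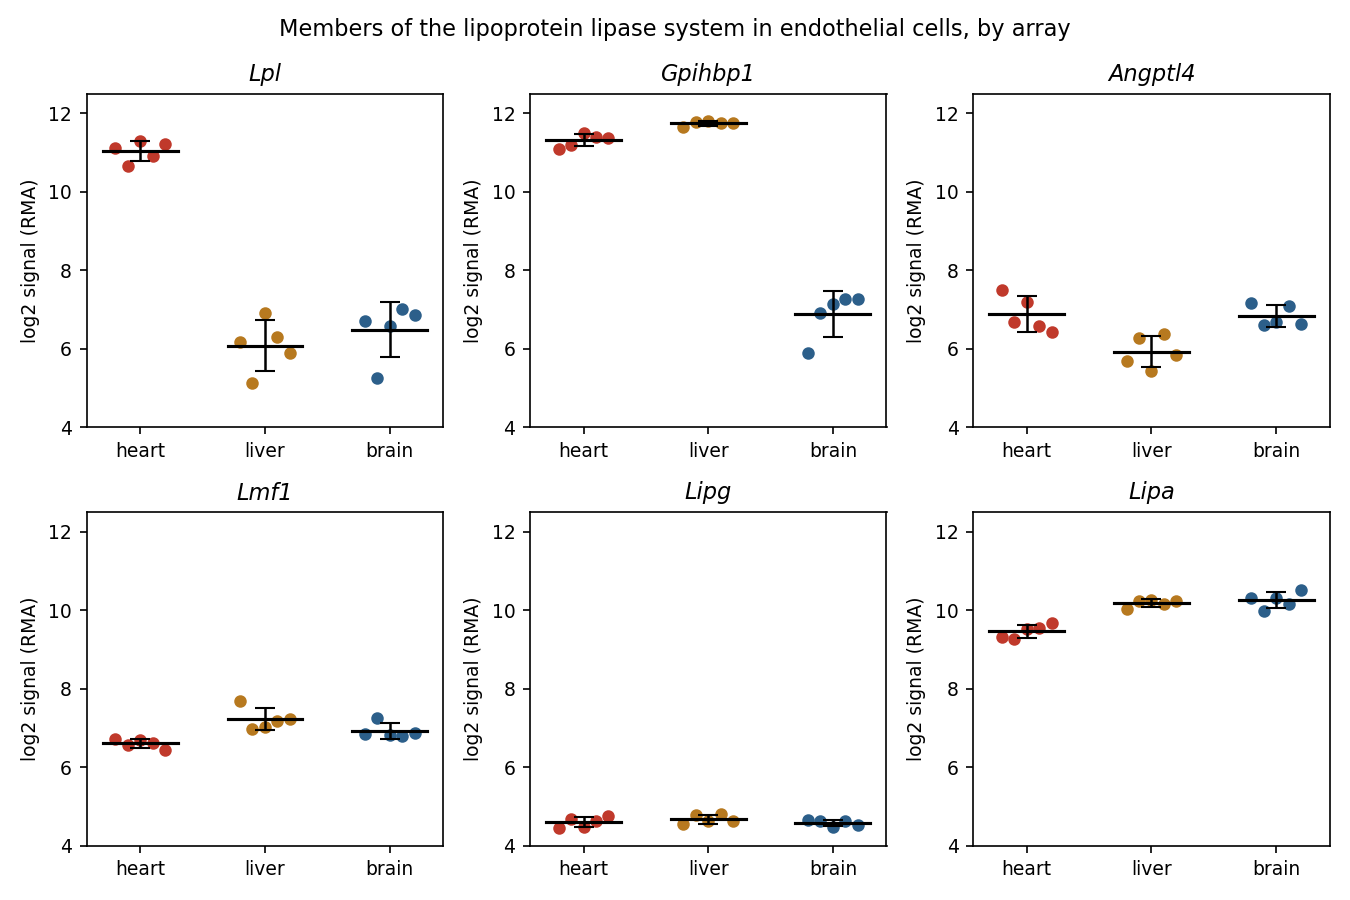
Each panel plots the log2 signal (y axis) of 1 gene on the 15 arrays by tissue (x axis), with a point per array and a bar for mean ± SD (n = 5). Lpl separates heart from liver and brain, Gpihbp1 separates brain from heart and liver, and Lipg lies between 4.46 and 4.81 on every array.

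Lpl had log2 signals of 11.10, 10.65, 11.28, 10.91 and 11.20 in the 5 heart samples. The liver samples had 6.17, 5.11, 6.90, 6.29 and 5.89, and the brain samples 6.69, 5.26, 6.58, 7.01 and 6.85. Every heart sample lay above every liver and brain sample, by at least 3.64, and the liver and brain samples overlapped; over all genes, the arrays did not overlap for 12.8% between heart and brain and for 20.6% between heart and liver. Means were 11.03 ± 0.25 in heart, 6.07 ± 0.65 in liver and 6.48 ± 0.70 in brain (SD, n = 5 each). Heart exceeded brain by 4.55 (SE 0.31, adjusted p = 5.7e-09 by limma), a 23.5-fold difference, and exceeded liver by 4.96 (SE 0.31, adjusted p = 1.03e-09), a 31.0-fold difference. Of all 19938 genes, Lpl had the 12th largest excess of heart over brain and the 11th largest of heart over liver. Liver minus brain was -0.40 (95% interval -1.06 to 0.25, adjusted p = 0.425).

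Because cardiomyocytes make Lpl, its heart values were set beside cardiomyocyte markers. The mean log2 signal of the 16 markers was 8.99, 8.16, 8.67, 7.59 and 7.61 in heart replicates 1 to 5, against 5.56 to 5.80 in the liver samples and 5.83 to 6.02 in the brain samples. Single markers differed in their excess in heart. Myl7 was at 5.69 in heart, against 5.28 in liver and 5.45 in brain, and did not pass between heart and brain (adjusted p = 0.0707 by limma). Tnnt2 was 33.8-fold higher in heart than in brain and 33.7-fold higher than in liver. Lpl was 11.10, 10.65, 11.28, 10.91 and 11.20 in heart replicates 1 to 5. It was highest in replicate 3 and lowest in replicate 2, where the markers were at 8.67 and 8.16. Without heart replicates 1 and 3, where the markers were highest, Lpl was higher in heart than in brain by 4.44 (adjusted p = 3.91e-07) and than in liver by 4.85 (adjusted p = 8.64e-08). The 3 heart samples kept there had markers at 7.59 to 8.16, above all liver and brain samples, and the part of cardiomyocyte RNA in the heart signal of Lpl was not tested. The other main source of the enzyme is the adipocyte. Of 8 measured adipocyte markers, 1 was higher in heart than in liver, and none passed between heart and brain (1 at an unadjusted p under 0.05 by limma). They averaged 5.30 to 5.49 in heart, 5.09 to 5.35 in liver and 5.25 to 5.32 in brain, and the mean signal of the fat cell hormone Adipoq was 4.16 ± 0.12 in heart, against 4.07 ± 0.08 in liver and 4.06 ± 0.11 in brain (SD, n = 5 each).

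In liver the low Lpl signal was uneven, and so were the markers of macrophages, which are also known to make lipoprotein lipase. The 13 macrophage markers averaged 7.85, 8.40 and 8.07 in liver replicates 1, 3 and 4, against 5.88 and 5.55 in replicates 2 and 5; they were 5.20 to 5.49 in heart and 5.10 to 5.28 in brain. Lpl was 6.17, 6.90 and 6.29 in the 3 liver samples with high markers and 5.11 and 5.89 in the pair with low markers. The part of macrophage RNA in these values was not tested. Without liver replicates 1, 3 and 4, liver minus brain was -0.97 (adjusted p = 0.0964) and heart minus liver was 5.53 (adjusted p = 8.8e-08). That alternative was chosen after seeing the data and leaves only 2 liver arrays.

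Gpihbp1, the carrier and anchor of the enzyme on the capillary wall, had 11.10, 11.20, 11.48, 11.38 and 11.37 in the heart samples. It had 11.65, 11.78, 11.80, 11.74 and 11.74 in the liver samples and 5.88, 6.90, 7.13, 7.28 and 7.26 in the brain samples. The brain samples lay at least 3.82 below all others, and even the heart and liver samples did not overlap; over all genes, liver and brain arrays did not overlap for 19%. Means were 11.31 ± 0.15 in heart, 11.74 ± 0.06 in liver and 6.89 ± 0.58 in brain (SD, n = 5 each). Heart was 21.3-fold higher than brain (log2 4.41, SE 0.20, adjusted p = 1.43e-11) and liver 28.8-fold higher than brain (log2 4.85, SE 0.20, adjusted p = 1.42e-12). These were the 14th and the 31st largest excesses over brain among all genes.

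Between heart and liver the difference in Gpihbp1 was small. Heart minus liver was -0.43 (95% interval -0.85 to -0.02) and did not pass after adjustment (adjusted p = 0.114) when the spread of all 3 tissues was shared. With the heart and liver samples alone the same difference passed (adjusted p = 0.00184), as it did without brain replicate 1 (adjusted p = 0.00153). Brain replicate 1, at 5.88, was the lowest Gpihbp1 value and also had the highest pericyte and smooth muscle markers of the brain samples, at 7.74 against 6.17 to 6.88 in the other 4, and the highest fibroblast markers; their part in it was not tested.

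**Figure D2:**
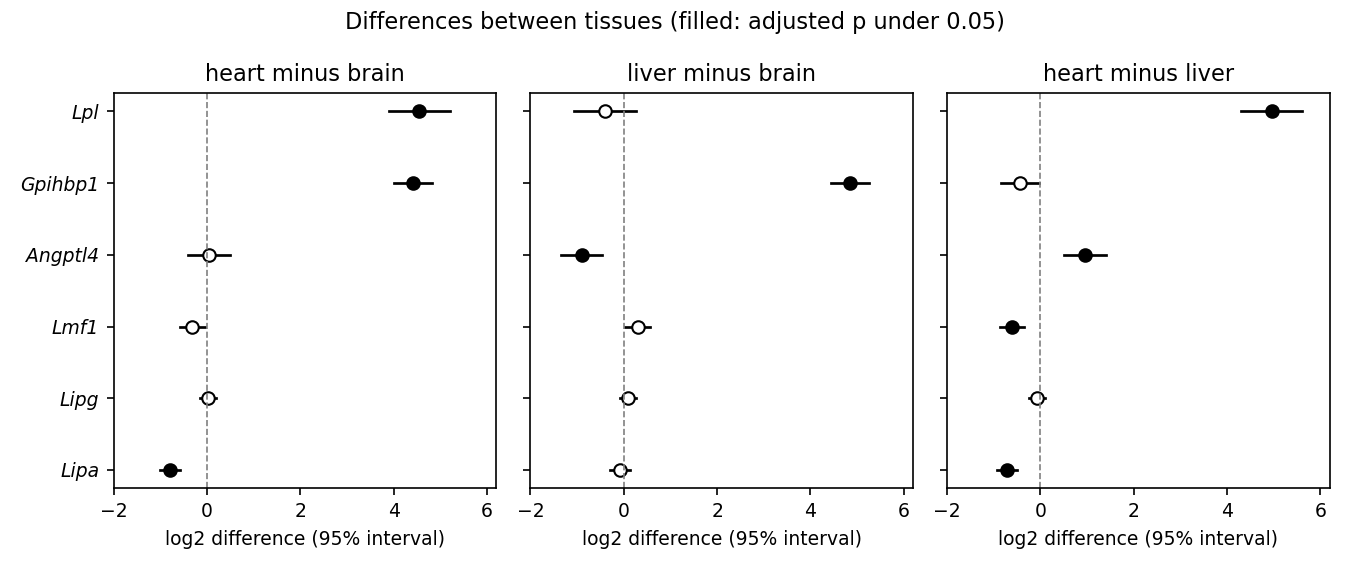
Points are log2 differences between tissue means (x axis, n = 5 arrays a tissue) with 95% intervals as lines, for 6 genes (y axis) and 3 pairs of tissues. Filled points passed an adjusted p of 0.05. Lpl and Gpihbp1 differ by similar amounts between heart and brain and part in both comparisons with liver.

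Lpl and Gpihbp1 therefore differed between tissues in different ways. Their difference on the same array, Lpl minus Gpihbp1, is given as a description, since it was chosen after their values were seen. It averaged -0.28 ± 0.23 in heart, -5.67 ± 0.65 in liver and -0.41 ± 0.87 in brain (SD, n = 5 each). Signals of different genes are not compared as levels here, so a value near 0 does not mean equal amounts of both. In liver, then, the carrier had its highest mean while the enzyme had its lowest, in samples that overlapped those of brain.

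By the stricter rule of a tissue that differs from both others at adjusted p under 0.05 and by at least 1 on the log2 scale, Lpl was enriched in heart, as were 0.908% of all genes, and Gpihbp1 was depleted in brain, as were 0.652%. The other 4 measured genes were not set apart in any tissue, in either direction, as 6.96% of all genes were. The 3 genes whose profile over the 15 arrays lay nearest to that of Lpl, by the root mean square difference of profiles centred on their own mean, were Ablim3 (0.62), Timp4 (0.63), an inhibitor of metalloproteinases, and Meox2 (0.63), a homeobox transcription factor. The 3 nearest to Gpihbp1 were Car8 (0.49), the nucleobase transporter gene Slc43a3 (0.59) and Aqp1 (0.60), a water channel. Among the 2 nearest measured genes on either side of each on the chromosome, heart minus brain lay between -0.38 and 0.16 for Lpl and between -0.0044 and 0.08 for Gpihbp1, and none passed. Of the neighbours of Lpl, Atp6v1b2 passed as higher in liver than in brain (0.52, adjusted p = 0.00523) and lower in heart than in liver (-0.68, adjusted p = 0.00062). Of those of Gpihbp1, Zfp41 passed as higher in liver than in brain (0.43, adjusted p = 0.0253).

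Angptl4, the inhibitor, had 7.50, 6.68, 7.19, 6.58 and 6.43 in the heart samples. It had 5.70, 6.28, 5.42, 6.37 and 5.84 in the liver samples and 7.15, 6.59, 6.68, 7.10 and 6.62 in the brain samples. All liver samples lay below all heart and brain samples, by a margin of only 0.05 from heart and 0.22 from brain. Means were 6.88 ± 0.45 in heart, 5.92 ± 0.40 in liver and 6.83 ± 0.27 in brain (SD, n = 5 each). Heart was higher than liver by 0.95 (SE 0.21, adjusted p = 0.00231), 1.94-fold. Liver was lower than brain, with a difference of -0.91 (SE 0.21, adjusted p = 0.00349). Without liver replicates 1, 3 and 4 the difference was -0.77 and did not pass (adjusted p = 0.061). That alternative was chosen after seeing the data and leaves only 2 liver arrays, so fewer arrays and other samples cannot be told apart there. Heart minus brain was 0.05 (95% interval -0.40 to 0.50, adjusted p = 0.918).

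Within heart and brain, Angptl4 was highest on the arrays with the most signal from markers of pericytes and smooth muscle, which wrap the same vessels. The 11 markers averaged 8.05, 7.43, 7.75, 7.30 and 6.70 in heart replicates 1 to 5, the same order as the Angptl4 signal. Fibroblast markers, at 7.62, 6.80, 7.05, 6.76 and 6.35, followed that order too. In the brain samples the pericyte and smooth muscle markers were 7.74, 6.36, 6.74, 6.88 and 6.17, and replicate 1 was highest in them, in Angptl4 and in the fibroblast markers. In liver they were 6.03 to 6.18 on all arrays. Cardiomyocyte markers were also highest in heart replicate 1. Without heart replicate 1 and brain replicate 1, an alternative chosen after seeing the data, Angptl4 was higher in heart than in liver by 0.80 (adjusted p = 0.00591), and liver minus brain was -0.82 (adjusted p = 0.00448). Without heart replicates 1 and 3 the excess of heart over liver was 0.64 (adjusted p = 0.0286). The part of these other cells in the Angptl4 signal was not tested further.

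**Figure D3:**
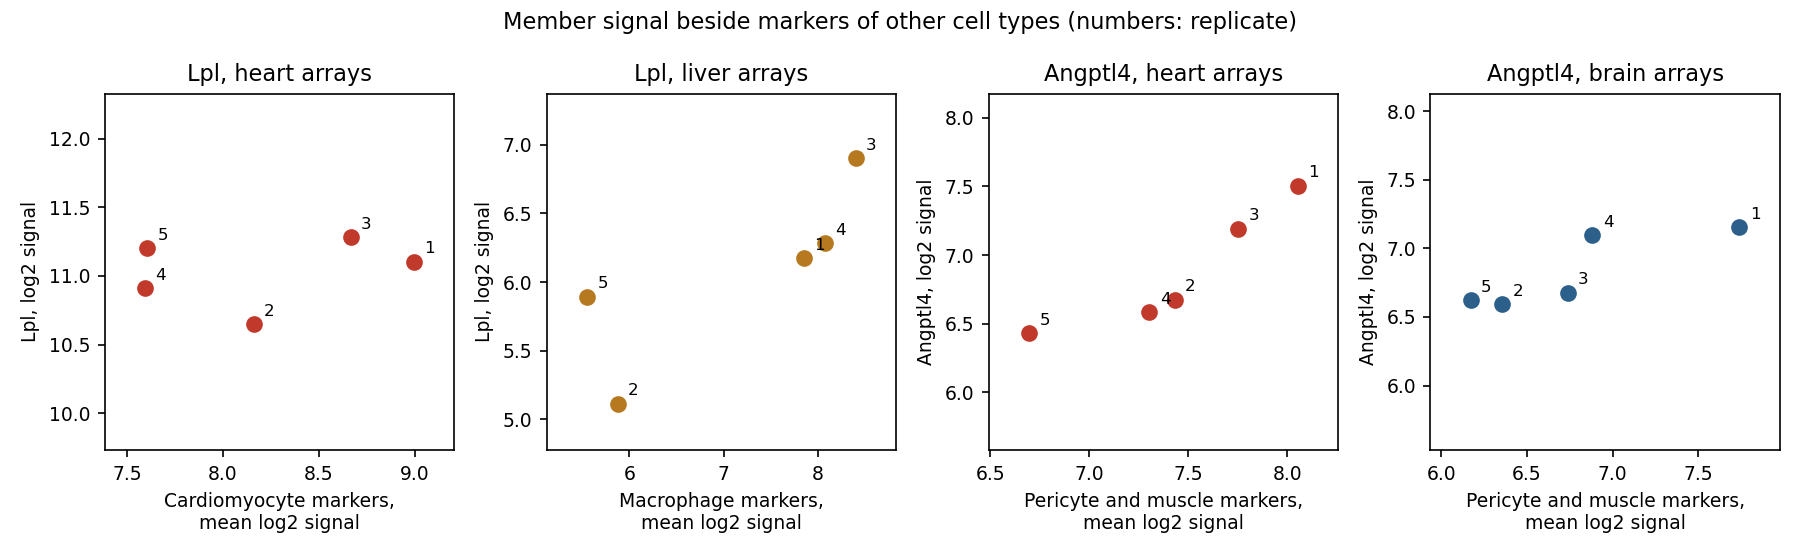
Each point is an array, numbered by replicate, with the mean log2 signal of a marker list on the x axis and the log2 signal of Lpl or Angptl4 on the y axis. Over the heart arrays Angptl4 (6.43 to 7.50) has the same order as the pericyte and smooth muscle markers, as it has with the fibroblast markers, which are not drawn. Lpl lies between 10.65 and 11.28 on the heart arrays, where cardiomyocyte markers are 7.59 to 8.99.

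Lmf1, the folding factor of the lipases, had 6.72, 6.57, 6.69, 6.62 and 6.43 in heart, 7.68, 6.97, 7.03, 7.17 and 7.23 in liver and 6.84, 7.26, 6.82, 6.81 and 6.87 in brain. Heart samples lay below all others, and liver and brain samples overlapped. Heart was lower than liver, with a difference of -0.61 (SE 0.12, adjusted p = 0.00107). Against brain, heart minus brain was -0.31 (95% interval -0.58 to -0.05, adjusted p = 0.106) and liver minus brain 0.30 (95% interval 0.04 to 0.56, adjusted p = 0.0958). The first passed without liver replicate 1 (adjusted p = 0.0348) and the second without brain replicate 2 (adjusted p = 0.0261) or with arrays centred on 12 endothelial genes (0.51, adjusted p = 0.00263). That centring added 0.21 to liver minus brain for every gene.

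Lipa, the lysosomal acid lipase, had 9.32, 9.28, 9.52, 9.54 and 9.68 in heart, 10.03, 10.22, 10.26, 10.16 and 10.22 in liver and 10.30, 9.98, 10.31, 10.16 and 10.51 in brain. All heart samples lay below all liver and brain samples. Heart was 1.64-fold lower than liver (log2 -0.71, SE 0.10, adjusted p = 3.05e-05) and 1.72-fold lower than brain (log2 -0.79, SE 0.10, adjusted p = 1.69e-05). Liver and brain samples overlapped, and their difference did not pass (-0.07, 95% interval -0.29 to 0.14, adjusted p = 0.699). In the 3 liver samples with high macrophage markers Lipa was 10.03, 10.26 and 10.16, against 10.22 and 10.22 in the pair with low markers.

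Lipg, named for its expression in endothelium, had 4.46 to 4.75 in heart, 4.55 to 4.81 in liver and 4.48 to 4.65 in brain. The samples of all tissues overlapped, and 3 arrays shared the value 4.62062. No difference passed: heart minus brain was 0.02 (95% interval -0.15 to 0.18, adjusted p = 0.918), liver minus brain 0.09 (-0.07 to 0.26, adjusted p = 0.473) and heart minus liver -0.08 (-0.24 to 0.09, adjusted p = 0.524). With arrays centred on 12 endothelial genes liver minus brain became 0.31 (adjusted p = 0.0286), but that centring added 0.21 to this difference for every gene. No detection call was at hand, so a signal near the bottom of the scale does not show whether the gene was expressed.

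Lmf1 and Lipa were both lower in heart than in liver, and RefSeq's table of mouse promoters (GRCm38.p6) holds 1 promoter for each. The 250 bases before their annotated starts are shown with a common promoter motif in capitals, a different one picked for each gene. For Lipa this is CCAAT, here on the opposite strand, and for Lmf1 GGGCGG, also on the opposite strand. Both are read 5′ to 3′ on the strand of the gene.
Lipa, chr19:34527475-34527724, minus strand: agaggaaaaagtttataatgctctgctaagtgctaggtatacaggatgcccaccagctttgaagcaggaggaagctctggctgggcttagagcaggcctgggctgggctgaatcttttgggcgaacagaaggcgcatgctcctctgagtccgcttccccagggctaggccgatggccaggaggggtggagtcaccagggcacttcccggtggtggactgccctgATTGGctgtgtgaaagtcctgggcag
Lmf1, chr17:25578924-25579173, plus strand: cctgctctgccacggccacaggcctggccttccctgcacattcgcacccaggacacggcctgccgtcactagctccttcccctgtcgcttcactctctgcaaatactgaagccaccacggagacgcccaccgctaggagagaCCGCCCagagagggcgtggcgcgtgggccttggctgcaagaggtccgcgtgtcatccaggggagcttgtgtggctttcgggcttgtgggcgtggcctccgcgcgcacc
On either strand, CCAAT occurred in 33.8% and GGGCGG in 32.7% of all 32851 promoters over the same 250 bases, and each was found in 1 of these 2. CACGTG, the core of the motif bound by lysosomal regulators such as TFEB, occurred in 6.02% of promoters and in neither of these windows. A match is a description of the letters and not a site.

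The genes that act around these 6 were taken from lists. Of 6 measured apolipoproteins and angiopoietin-like regulators of lipases, 5 were higher in liver than in brain, and 4 were lower in heart than in liver; the list's median log2 difference was 0.82 for liver minus brain, against 0.00222 over all genes. Apoe, which guides remnant particles to their receptors, was at 9.29 ± 0.20 in heart, against 12.35 ± 0.15 in liver and 10.23 ± 0.29 in brain (SD, n = 5 each). It was 8.38-fold lower in heart than in liver (adjusted p = 4.94e-12). Apoc1, an inhibitor of lipoprotein clearance, was 11.3-fold higher in liver than in brain (adjusted p = 4.85e-09), and Apoc3, an inhibitor of lipoprotein lipase, 2.13-fold higher (adjusted p = 0.000268). Hepatocytes make these proteins in quantity, and 9 of 11 hepatocyte markers were also higher in liver than in brain and 1 lower. Their mean was 7.14 to 7.80 in liver, against 5.43 to 5.49 in heart and 6.07 to 6.19 in brain. The lower one was Ttr, at 12.49 in brain, 8.44 in liver and 5.33 in heart. The part of hepatocytes in the apolipoprotein signal was not tested.

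Of 14 genes of lipase folding, export and cleavage, 2 were higher and 6 lower in heart than in liver, and 2 were higher and 2 lower in heart than in brain. Sel1l, which assists the maturation of lipoprotein lipase in the endoplasmic reticulum, was 1.59-fold lower in heart than in liver (adjusted p = 0.000252), and the chaperone Pdia4 1.86-fold lower (adjusted p = 4.81e-07). Pcsk5, a proprotein convertase, was 2.06-fold higher in heart than in liver (adjusted p = 2.39e-07). Sort1, a sorting receptor for secreted proteins, was 2.54-fold lower in heart than in brain (adjusted p = 6.3e-06).

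Heparan sulfate chains also hold lipases on the cell surface. Of 21 genes of these chains, 11 were higher and 7 lower in heart than in liver, 7 higher and 2 lower in heart than in brain, and 10 higher and 5 lower in liver than in brain. Ext1, which elongates the chain, was enriched in heart at 9.50 ± 0.13, against 7.91 ± 0.13 in liver and 7.58 ± 0.25 in brain (SD, n = 5 each). Extl3, which starts the chain, was at 6.64 ± 0.20 in heart, against 4.78 ± 0.36 in liver and 8.62 ± 0.19 in brain, so liver was 14.3-fold lower than brain (adjusted p = 1.14e-12). Hpse, the heparanase that cuts the chain, was 18.5-fold higher in liver than in brain (adjusted p = 6.67e-16) and 15.6-fold lower in heart than in liver (adjusted p = 2.41e-15). Sulf1, which trims sulfate from it, was 3.48-fold higher in heart than in liver (adjusted p = 4.88e-06).

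Among 19 other lipases, 3 were higher and 2 lower in heart than in brain. Fewer passed in the other comparisons, with 1 higher and 2 lower in liver than in brain, and 2 higher and 1 lower in heart than in liver. Mgll, which splits monoglycerides, was enriched in heart at 11.35 ± 0.11, against 9.65 ± 0.18 in liver and 9.32 ± 0.28 in brain (SD, n = 5 each). Lipe, the hormone-sensitive lipase, was 3.49-fold higher in heart than in liver (adjusted p = 8.93e-09) and 2.50-fold lower in liver than in brain (adjusted p = 4.09e-07). Nceh1, a neutral cholesteryl ester hydrolase, was lower in heart than in liver, 1.82-fold (adjusted p = 0.000124). Pla1a, a phospholipase, was 1.68-fold higher in heart than in brain (adjusted p = 0.0217).

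Some receptors bind what the lipases leave of a lipoprotein, and the list of receptors also held scavenger and fatty acid receptors. Of 8 measured, 1 was higher and 2 lower in heart than in brain, and 3 were higher and 2 lower in liver than in brain. The 3 higher in liver were Cd36, Stab1 and Stab2. Lrp8, an apolipoprotein E receptor, was enriched in brain, as were 1.56% of all genes, at 5.65 ± 0.12 in heart, against 5.44 ± 0.25 in liver and 8.63 ± 0.29 in brain (SD, n = 5 each). The scavenger receptor Stab2 was 81.4-fold higher in liver than in brain (adjusted p = 1.27e-19) and Stab1 8.80-fold higher (adjusted p = 3.74e-13). Cd36, the fatty acid receptor that was lowest in brain, was 304-fold higher in heart than in brain (adjusted p = 6.31e-17). Of 15 genes of fatty acid uptake and storage, 5 were higher and 2 lower in heart than in brain, and likewise 5 and 2 in liver against brain. The binding protein genes Fabp4 and Fabp5 were 51.3-fold and 24.3-fold higher in heart than in brain and 18.3-fold and 17.3-fold higher in liver than in brain. The glycerol channel Aqp7 was 46.0-fold higher in heart than in brain and 41.7-fold higher than in liver. Fabp3 was enriched in heart but uneven there, at 7.49 ± 1.38 (SD, n = 5), where the cardiomyocyte markers ranged from 7.59 to 8.99; their part in it was not tested.

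A further list held 14 measured transcription factors known to act on Lpl or Angptl4 or on fatty acid uptake in endothelium. Of them 5 were higher and 2 lower in heart than in liver, and 3 were higher and 3 lower in heart than in brain. The 3 higher in heart than in brain were Pparg, Meox2 and Tcf15. The list was chosen with earlier results of these data known, so its counts only describe it. Pparg, a fatty acid sensor that activates Lpl and Angptl4 in fat cells, was at 10.12 ± 0.26 in heart, against 6.69 ± 0.26 in liver and 5.52 ± 0.22 in brain (SD, n = 5 each), 24.3-fold higher in heart than in brain (adjusted p = 1.21e-13). Meox2 and Tcf15, partners in endothelial fatty acid transport, were 34.5-fold and 4.38-fold higher in heart than in brain. Epas1, a hypoxia-inducible factor, was 2.29-fold lower in liver than in brain (adjusted p = 2.91e-07).

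Around Lipa, 9 of 15 genes of lysosomal lipid breakdown and cholesterol export were higher in liver than in brain and 2 lower, and 10 were lower in heart than in liver. Their median was 0.70 for liver minus brain and -0.56 for heart minus liver, against 0.00222 and 0.03 over all genes. The transcription factor Tfec was 70-fold higher in liver than in brain (adjusted p = 8e-17), the lysosomal membrane protein gene Lamp2 4.21-fold (adjusted p = 3.23e-12), the cholesterol exporter Abcg1 2.59-fold (adjusted p = 1.41e-05) and Scarb2, a lysosomal membrane receptor, 2.20-fold (adjusted p = 1.62e-08). Lipa itself did not share this excess of liver over brain, at -0.07. Macrophages are rich in lysosomes, and their markers were higher in liver than in brain for 12 of 13; their part in this list was not tested.

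**Figure D4:**
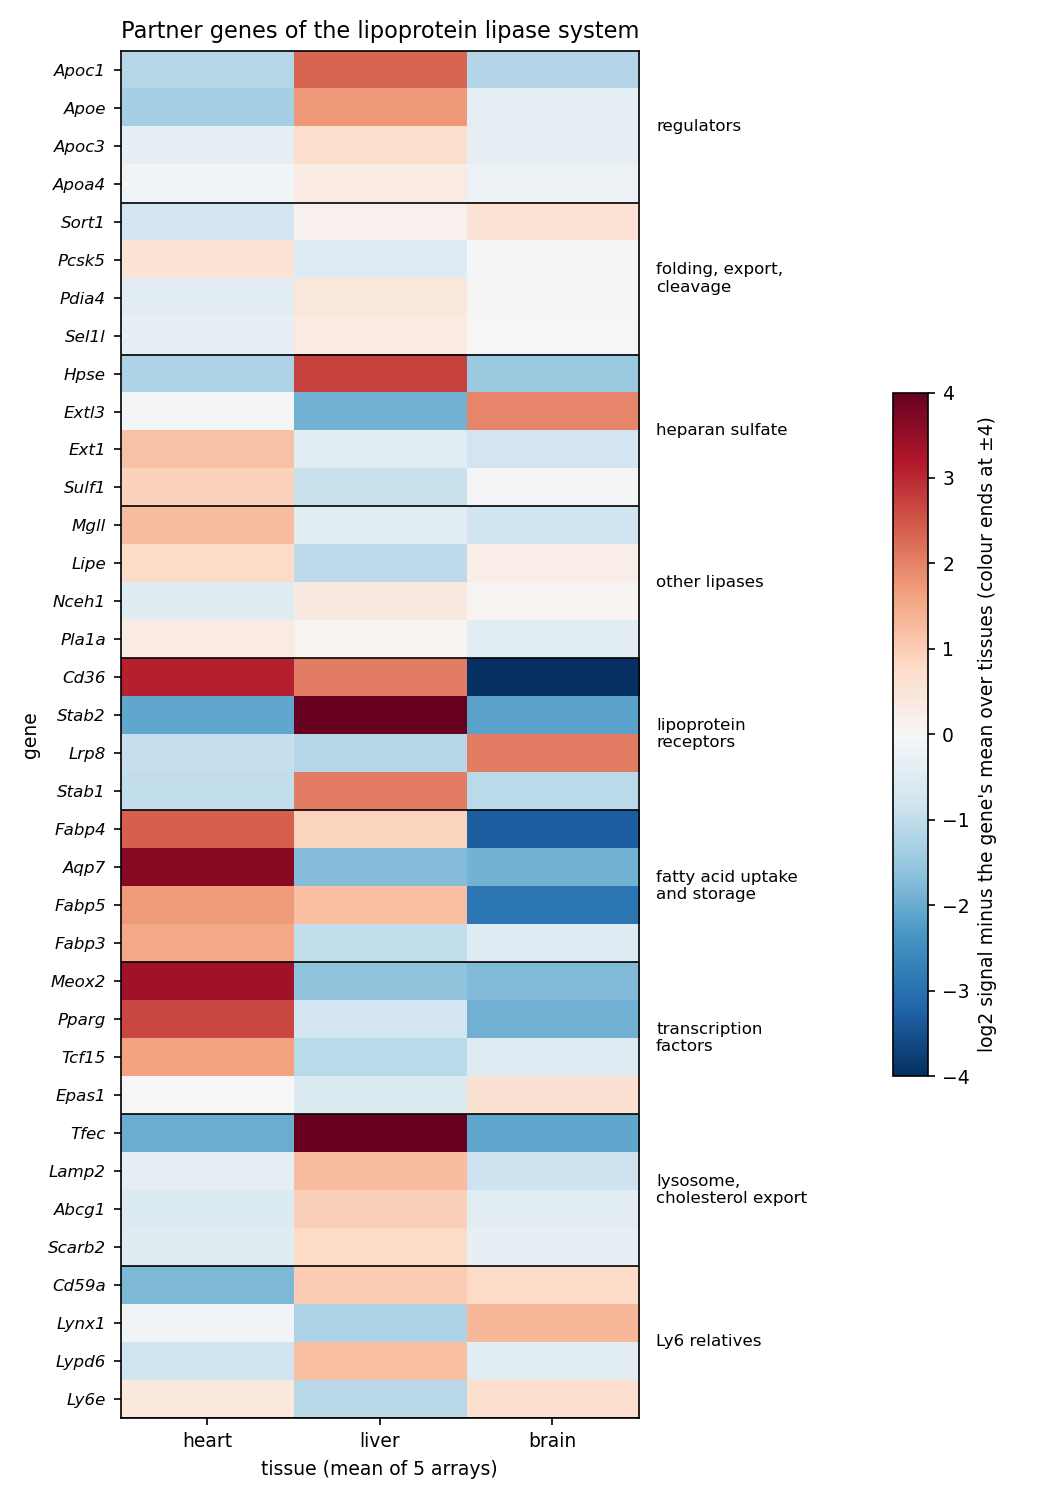
Rows are the partner genes with the largest differences in each list (y axis) and columns the 3 tissues (x axis). The angiopoietin-like family is not drawn. Colour gives the mean log2 signal of 5 arrays minus the gene's mean over tissues. Aqp7 and Meox2 are highest in heart, Fabp4 and Fabp5 are lowest in brain, and Hpse and Tfec are highest in liver.

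Angptl4 and Gpihbp1 belong to gene families whose other members were measured too. Of 5 angiopoietin-like genes, 1 passed as lower in liver than in brain, Angptl4 itself, and 1 as higher, Angptl1 at 2.63-fold (adjusted p = 3.32e-06). Of 13 measured Ly6 family relatives of Gpihbp1, 4 were lower in heart than in brain and none passed as higher (1 at an unadjusted p under 0.05 by limma), while 1 was higher and 4 lower in liver than in brain. Cd59a, an inhibitor of complement, was 6.01-fold lower in heart than in brain (adjusted p = 3.34e-07), and Lynx1, a modulator of acetylcholine receptors, 2.71-fold lower (adjusted p = 1.05e-06). Lypd6 was 3.08-fold higher in liver than in brain (adjusted p = 7.93e-10), and Ly6e 3.38-fold lower (adjusted p = 1.18e-10).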

How the data were processed

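The deposited table holds log2 values of 35556 probe sets for 15 arrays, which the authors made by RMA with Affymetrix Power Tools, per the submitters' processing notes. Software versions and genome build: not given in the sources used here. RMA evens out the distributions of the arrays and compresses large differences. The values were used as deposited. GEO's annotation gave 1 symbol to 21789 probe sets and several to 1621, which were left out, as were unnamed ones. Where a gene had several (999 genes), the probe set of highest mean was kept, leaving 19938 genes. A linear model with 3 tissue means was fitted over the 15 arrays by limma 3.58.1 in R 4.3.3 (12 residual and 4.75 prior degrees of freedom) and checked on simulated arrays; folds are powers of 2 of log2 differences, and intervals are unadjusted.

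Samples were grouped by title. The members, the 11 pathway lists and the 13 marker lists were chosen with earlier results of these data known. Of each list the text names up to 4 genes with the largest difference among those that passed in any comparison, members aside. Adipoq, Cdh5, Cldn5, Tnnt2, Myl7 and Ttr are named from their marker lists. The comparison of Lpl with Gpihbp1 on the same array was chosen after their values were seen. P-values measure the spread between pools, limited by 5 arrays per tissue. Alternatives were other centrings, the replicate number as a block, a filter on dim genes, another probe set rule, other variance models, the compared tissues alone, array weights and arrays left out.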

Additional observations from a re-analysis of the deposited data

Results flagged for a closer look

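In 3 of the 18 groups of 5 arrays (6 genes in 3 tissues) a single array stood far from the others by Dixon's test; chance marks about 1 in 20 groups. All 3 were brain arrays. Lpl in brain replicate 2 was 5.26, below 6.58 to 7.01 in the other brain arrays. Lmf1 in the same array was 7.26, above 6.81 to 6.87 in the others. Gpihbp1 in brain replicate 1 was 5.88, below 6.90 to 7.28 in the others. Lpl was also lowest in replicate 2 among the liver arrays (5.11) and among the heart arrays (10.65).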

How the results depend on the processing

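The count of genes that passed between heart and brain was 3 or 4, and between heart and liver 4 or 5, under all alternatives; 2 or 3 genes were set apart in 1 tissue. Between liver and brain the count of 2 became 4 with arrays centred on the pan-endothelial list, which moved the median of all genes by 0.20 for heart minus brain and 0.21 for liver minus brain, and 1 without liver replicates 1, 3 and 4, which leaves 2 liver arrays. That alternative and the one without brain replicate 1 and heart replicate 1 were chosen after seeing the data. With single arrays left out it was 2 or 3. The calls of Lpl (log2 4.25 to 4.76 for heart minus brain, 4.72 to 5.53 for heart minus liver), of Gpihbp1 against brain and of Lipa and Lmf1 in the comparisons they passed held under every alternative, and none reversed. The filter on dim genes left out Lipg, which has no value under it. The replicate block left all 4 counts as they were, at 3, 2, 4 and 2. The labels do not say what arrays with the same replicate number share. The correlation of their deviations over genes was above 0.1 in 6 of 15 pairs (median 0.0952), against 2 of 60 pairs of different number (median -0.0241), and 12 of 15 arrays correlated best with an array of their own number, a hint from the data that something was shared by number; what it was is not known.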
